A study of Mus musculus with 10 samples.

Results

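The G1 cyclin and CDK genes are 8 mouse genes: the D-type cyclins Ccnd1, Ccnd2 and Ccnd3, the E-type cyclins Ccne1 and Ccne2, and the kinases Cdk2, Cdk4 and Cdk6. Their open chromatin was read from ATAC-seq peak lists of adult neural stem cell cultures. A region belonged to a gene when a peak summit lay in the gene body or within 50 kb of it, in GENCODE M21 on GRCm38. Merging the overlapping peaks of all 10 lists gave 137454 regions over the genome, and 124 of them belonged to the 8 genes. Of these 124, 54 were found in all 10 libraries, 79 in 5 or more, 104 in 2 or more and 20 in 1 library only. The rank test covered the 79 found in 5 or more, and with them 70627 regions over the genome.

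The cultures came from the subependymal zone (SEZ) of mice 10 weeks old, which were wild type (WT) or carried a Cdkn1b mutation that removes p27 (p27KO). Proliferating cells (PRO) were neurospheres, recorded as 3 days in vitro, whose medium held epidermal growth factor at 20 ng/ml and fibroblast growth factor (FGF) at 10 ng/ml. Differentiating cells (DIFF) were plated on Matrigel with FGF for 2 days and then left without mitogens, in 2% serum, for 24 h. Each condition had 3 libraries in WT and 2 in p27KO, each made from 50000 cells, and PRO and DIFF differed in substrate and serum as well as in mitogens. The mutation was in every cell of the animal and not limited to neural cells. Bulk chromatin was measured, so fewer cells with an open site and a less open site in each cell cannot be told apart.

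In G1, mitogens raise the D-type cyclins, which bind CDK4 or CDK6 and start the phosphorylation of the retinoblastoma protein RB. RB then releases E2F factors, which switch on genes for DNA synthesis, cyclin E among them, and cyclin E with CDK2 carries the cell into S phase. p27 binds the cyclin E and CDK2 complex and blocks it, and it also binds the complexes of the D-type cyclins.

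Sequences are shown first for the 3 promoters that mark the range of the results and for 3 distal regions outside annotated exons, of which those near Ccnd3 and Ccnd1 passed the rank test in both genotypes and that near Ccnd2 lost its peak in DIFF in both. Promoter sequences are from RefSeq (GRCm38.p6), whose table held 5 of the 8 genes, and are cut to the 250 bases before the start, in the direction of the gene. The Ccne1 promoter is shown because it was the only one of the 8 that passed a test, Cdk2 because its promoter ranked highest, and Cdk6 because its promoter ranked lowest among the 5 genes in the table. Capitals mark matches, on either strand, to the GC box motif GGGCGG, to the E-box motifs CACGTG or else CAGCTG, to the E2F motifs TTTCGCGC or else TTTGGCGC or else TTTCCCGC, to the AP-1 motif TGANTCA, to the CRE motif TGACGTCA, to the ETS motif CCGGAAGT and to the SOX motifs ACAATGG or else ACAAAGG or else ACAATAG. In these 6 sequences no match overlapped another.
Ccne1, chr7:38107491-38107740, minus strand: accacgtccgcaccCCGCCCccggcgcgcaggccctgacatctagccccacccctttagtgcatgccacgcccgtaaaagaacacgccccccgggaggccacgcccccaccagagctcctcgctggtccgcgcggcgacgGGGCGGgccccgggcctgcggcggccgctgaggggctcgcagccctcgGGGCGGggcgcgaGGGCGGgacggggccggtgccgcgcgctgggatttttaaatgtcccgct
Cdk2, chr10:128705052-128705301, minus strand: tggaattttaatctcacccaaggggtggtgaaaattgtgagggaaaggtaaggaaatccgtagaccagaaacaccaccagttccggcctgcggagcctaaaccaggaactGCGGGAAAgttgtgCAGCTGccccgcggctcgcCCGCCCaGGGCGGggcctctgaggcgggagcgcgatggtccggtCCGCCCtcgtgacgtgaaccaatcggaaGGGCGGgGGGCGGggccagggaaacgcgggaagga
Cdk6, chr5:3343643-3343892, plus strand: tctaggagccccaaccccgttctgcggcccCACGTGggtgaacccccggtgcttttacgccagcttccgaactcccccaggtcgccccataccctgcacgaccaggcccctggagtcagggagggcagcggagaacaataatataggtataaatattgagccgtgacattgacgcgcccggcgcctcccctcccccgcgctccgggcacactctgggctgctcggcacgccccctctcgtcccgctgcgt

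The other 3 are windows of 300 bases around the summit, from the GRCm38.p6 genome and on its plus strand. They are the region 34.1 kb upstream of Ccnd3, the region 3.6 kb upstream of Ccnd1 and the region 10.9 kb upstream of Ccnd2. The first lies in intergenic DNA, as does the second, and the last lies in an intron of the non-coding gene 9330179D12Rik.
Ccnd3 region, chr17:47470751-47471050: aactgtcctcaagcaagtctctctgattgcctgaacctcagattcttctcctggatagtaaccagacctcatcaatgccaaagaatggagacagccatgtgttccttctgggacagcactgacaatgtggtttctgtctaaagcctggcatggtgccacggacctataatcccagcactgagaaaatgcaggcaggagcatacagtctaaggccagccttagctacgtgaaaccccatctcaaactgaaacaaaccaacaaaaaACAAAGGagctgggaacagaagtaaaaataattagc
Ccnd1 region, chr7:144943365-144943664: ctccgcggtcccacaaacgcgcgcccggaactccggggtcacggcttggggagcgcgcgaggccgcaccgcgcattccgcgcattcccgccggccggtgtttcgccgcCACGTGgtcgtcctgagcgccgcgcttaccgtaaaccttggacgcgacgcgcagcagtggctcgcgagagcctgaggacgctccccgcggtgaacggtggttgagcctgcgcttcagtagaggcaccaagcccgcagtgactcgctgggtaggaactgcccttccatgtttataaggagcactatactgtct
Ccnd2 region, chr6:127162914-127163213: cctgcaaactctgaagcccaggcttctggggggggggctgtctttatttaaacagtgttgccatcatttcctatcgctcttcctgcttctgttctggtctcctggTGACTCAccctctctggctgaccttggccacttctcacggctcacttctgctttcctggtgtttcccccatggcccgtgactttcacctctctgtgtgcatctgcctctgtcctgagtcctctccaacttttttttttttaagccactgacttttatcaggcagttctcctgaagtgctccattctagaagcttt

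The Ccne1 promoter stretch held 4 GC boxes and no match to the other motifs, with 76% G and C. In the Cdk2 stretch there were 5 GC boxes, 1 CAGCTG and 1 match to an E2F motif, in the form GCGGGAAA on the strand shown. The Cdk6 stretch held 1 CACGTG and no GC box. Cdk4, which is in the table but not printed, held 4 copies of CACGTG and 1 GC box, and Ccnd3 held 1 GC box. A GC box was found in 4 of the 5 promoters, against 32.7% of 32851 RefSeq promoter stretches of the same length, CACGTG in 2 of 5 against 6.02%, and an E2F motif in 1 of 5 against 1.53%. The median G and C content was 64.8% for the 5 promoters and 52.4% for all.

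Among the distal windows, the Ccnd1 region was rich in CpG, with a ratio of observed to expected CpG of 1.20, and held 1 CACGTG. The Ccnd3 window had a CpG ratio of 0.13 and held 1 SOX match, ACAAAGG, at bases 265 to 271. Only the first 236 bases of that window lie in the region, so the match is outside it. The Ccnd2 window had a CpG ratio of 0.16 and held 1 AP-1 match, TGACTCA. The median CpG ratio was 0.32 for the 42 distal regions of the 8 genes and 0.20 for 50114 distal regions. Of the 42 windows, 5 held an AP-1 match, against 12.8% of all distal windows, 12 held CAGCTG, against 28.8%, and 3 held a SOX match, against 18.7%.

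The identity of the cultures was checked first. A peak overlapped Cdkn1b in 6 of 6 WT libraries and in 0 of 4 p27KO libraries, as the sample titles state, although the free-text descriptions of the p27KO libraries name WT cells. All 10 markers of neural stem and progenitor cells had a promoter peak in every library, and none of 5 markers of microglia and blood had one in any. Of 5 neuronal markers, 3 to 5 had a peak in each library. Snap25, Syt1 and Syn1 had one in all 10 libraries, Rbfox3 in 9 and Dcx in 1 only. Of 5 fibroblast and mural markers 2 to 4 had one, with Col1a1 and Acta2 in all 10 libraries, Pdgfrb in 5, Dcn in 3 and Lum in 2. Of 5 endothelial markers 2 to 3 had one in PRO libraries and 1 in DIFF libraries. Kdr had one in all 10 libraries, Pecam1 in 5 and Cldn5 in 1, with Cdh5 and Tek at 0 throughout. The part of these other cells in the results was not tested. The lists held from 57534 to 91801 peaks, and the number of reads behind them is unknown.

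The 8 genes differed in how much open chromatin surrounded them. Ccnd3 and Cdk6 each had 22 regions, Cdk4 had 19, Ccnd1 had 17, Ccnd2 had 16, Ccne1 had 13, Cdk2 had 9 and Ccne2 had 6. Cdk6 spans 3341485 to 3531008 on chromosome 5, so many of its regions were intronic, and 13 of its 15 tested regions were distal, meaning over 3 kb from every protein-coding start site. Around Cdk2 and Cdk4, by contrast, 5 tested regions each belonged to the promoters of other genes, such as Rab5b and Suox near Cdk2 and Tspan31 and Mettl1 near Cdk4. Over all 8 genes, 17 of the 79 tested regions were promoter regions within 3 kb of the genes' own starts. They included a region 2.8 kb upstream of Ccnd3 that lay 7 bp from the start of Taf8. Another 20 were promoter regions of neighbours and 42 were distal regions. A peak in all 10 libraries was found for 59.5% of the 42 distal regions, against 44.6% of all tested distal regions.

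**Figure D1:**
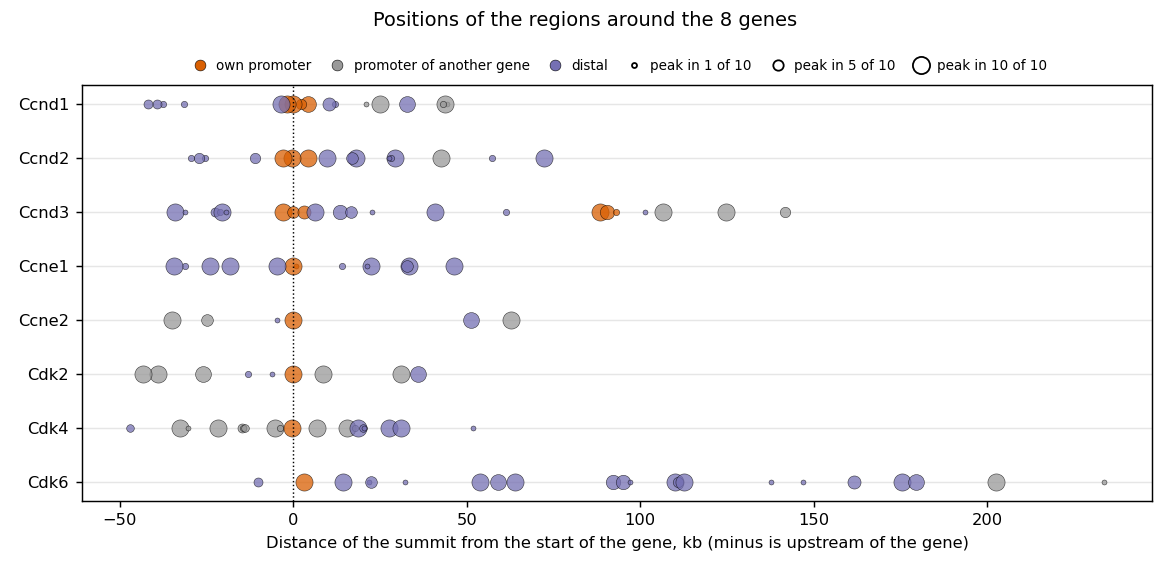
Each point is 1 of the 124 regions, placed by the distance in kb of its summit from the start of the gene on the x axis and by gene on the y axis. Point size grows with the number of libraries with a peak, from 1 to 10. Colour separates promoter regions within 3 kb of the gene's own starts, promoters of other genes and distal regions. Cdk6 and Ccnd3 have 22 regions each and Ccne2 has 6.

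Accessibility was compared between libraries by rank, since the lists hold no read counts. The fold enrichment of each tested region, the pileup at the summit over the local background, was ranked within its library and given as a percentile among the 70627 tested regions, with 100 the most enriched. All 8 promoters had a peak in all 10 libraries. The median percentile over libraries was 82.4 for Cdk2, 82.2 for Ccnd3, 80.8 for Ccne1, 79.5 for Ccne2, 78.2 for Cdk4, 56.6 for Cdk6, 32.7 for Ccnd2 and 29.6 for Ccnd1. The first 5 genes overlapped in their ranges, from 63.2 to 94.9 over the libraries, so their order among themselves is not settled. Cdk6 ranged from 43.6 to 71.4, Ccnd2 from 22.4 to 56.8 and Ccnd1 from 25.7 to 48.1.

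Among the 8 promoter regions so chosen, those of Ccnd1 and Ccnd2, which encode D-type cyclins, had the lowest medians. Ccnd3 stands at 82.2 through a downstream start, and the region at its first start had a peak in 6 libraries only, at percentiles of 7.57 to 31.1. Over 12420 gene promoters with a peak in all libraries the median was 82.2, and only 1.15% of them lay below Ccnd1 and 1.71% below Ccnd2. Cdk6 had 12.8% of gene promoters below it, and the other 5 genes had between 41.7% and 50.6%. The Ccnd1 value is that of the region nearest to the start. Another Ccnd1 promoter region, 1.7 kb upstream, reached percentiles of 45.2 to 62.4. Both were below the promoter of the neighbour LTO1, 24.9 kb downstream of the Ccnd1 start, which was the most enriched tested region around Ccnd1 in 10 of 10 libraries.

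**Figure D2:**
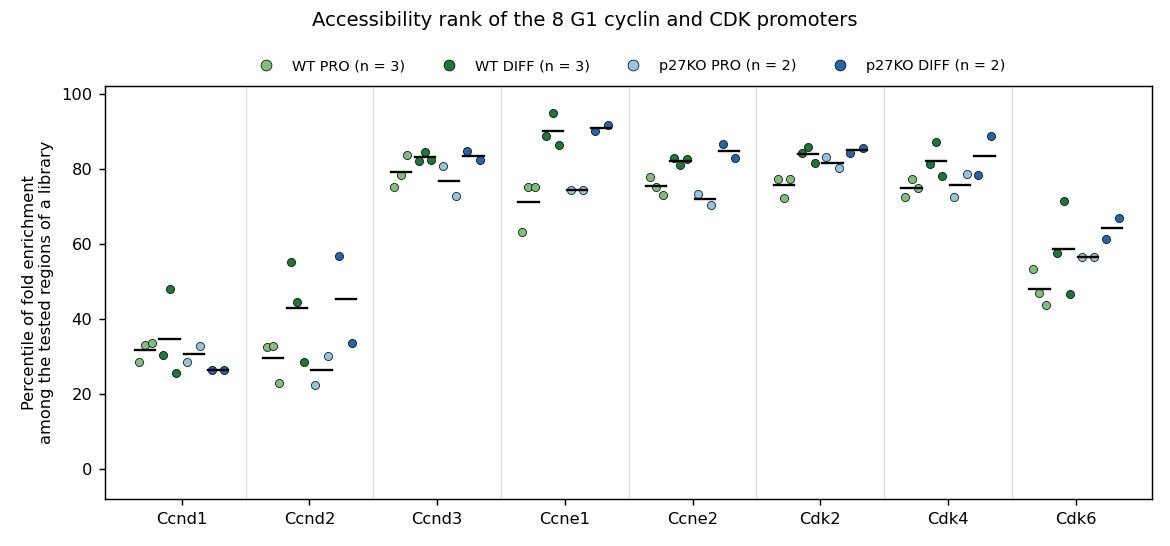
Each point is a library and each black line a group mean. The y axis is the percentile of fold enrichment among the tested regions of the library, from 0 to 100, for the promoter region of each gene on the x axis; Ccnd1 and Ccnd2 lie lowest, and for Ccne1 the DIFF libraries lie between 86.3 and 94.9, above the PRO libraries at 63.2 to 75.2.

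Around most of the 8 genes the strongest region was not the promoter of the cyclin or kinase. The promoter of Rab5b, 8.6 kb downstream of the Cdk2 start, ranked first around Cdk2 in 10 of 10 libraries, with percentiles of 95.4 to 99.4, and the promoter of Tspan31, 6.8 kb downstream of the Cdk4 start, ranked first around Cdk4 in 10 of 10, at 75.8 to 94.4. Around Ccnd2 the promoter of Tigar, 42.6 kb downstream of its start, led in 9 libraries, at 94.7 to 99.5. The Ccne1 promoter itself was first of 9 tested regions in 1 library. A region 46.3 kb downstream of the Ccne1 start, in introns of Gm30684 and Gm30771, led in 7, at 92.5 to 98.0.

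Inside the long introns of these genes some regions were well above the promoters. For Cdk6, the intronic region 63.8 kb downstream of its start had percentiles of 78.8 to 94.7, against 43.6 to 71.4 at its promoter, and its change was 0.28 in WT (adjusted p = 0.434) and 0.13 in p27KO (0.816). For Ccnd2, the region 18.1 kb downstream had percentiles of 72.7 to 90.9, against 22.4 to 56.8 at its promoter, and changes of 0.22 (adjusted p = 0.46) and 0.08 (0.866). These regions lay above the promoters in every library and did not differ detectably between PRO and DIFF. For Ccnd3, the intronic region 6.2 kb downstream of the first start was at 86.6 to 94.6, with changes of 0.12 (adjusted p = 0.692) and 0.16 (0.702).

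The first question was whether mitogen withdrawal lowered the accessibility of these promoters when the cells left the cycle. None of the 8 promoters was called lower in DIFF. At the promoter of Ccne1, the cyclin that activates CDK2, accessibility rank rose in WT cells. The region lies at 38106883 to 38108204 on chromosome 7, with its summit 82 bp from the start. Its percentiles in WT were 63.2, 75.2 and 75.1 in PRO and 88.8, 94.9 and 86.3 in DIFF, with fold enrichments of 7.99, 9.89 and 9.04 in PRO and 10.4, 12.4 and 12.2 in DIFF. In p27KO they were 74.3 and 74.5 in PRO and 90 and 91.6 in DIFF. Every DIFF library lay above every PRO library of either genotype.

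For the test, ranks were turned into normal scores, on which 1 unit is 1 SD of a standard normal distribution. Equal changes in score can therefore be unequal changes in percentile. The Ccne1 change from PRO to DIFF was 0.75 ± 0.20 (SE) in WT (limma, adjusted p = 0.0205) and 0.68 ± 0.24 in p27KO (adjusted p = 0.0964), which did not pass the threshold of 0.05. The WT call was lost without WT PRO 1 (adjusted p = 0.0819) or WT DIFF 2 (0.0792). The changes in the 2 genotypes differed by -0.08, with a 95% interval from -0.76 to 0.60.

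Ccne2, the other E-type cyclin, had a change of the same sign that did not pass the test. Its WT percentiles were 77.9, 75.2 and 73.1 in PRO and 82.8, 81.1 and 82.6 in DIFF, and the p27KO percentiles were 73.3 and 70.5 in PRO and 86.6 and 82.9 in DIFF. By percentile the DIFF libraries lay above the PRO libraries in both genotypes. Fold enrichments overlapped in WT, at 10.3, 9.88 and 8.76 in PRO and 8.95, 8.2 and 11.3 in DIFF. In p27KO they were 10.1 and 9.06 in PRO and 11.2 and 11.9 in DIFF. The change was 0.23 ± 0.16 in WT (adjusted p = 0.348) and 0.45 ± 0.20 in p27KO (adjusted p = 0.175).

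Among the kinases none passed. The Cdk2 promoter, which it shares with the start of Pmel 59 bp from the summit, had WT percentiles of 77.4, 72.2 and 77.3 in PRO and 84.3, 85.8 and 81.7 in DIFF. In p27KO, the genotype that lacks the CDK2 inhibitor, the values were 83.2 and 80.2 in PRO and 84.3 and 85.6 in DIFF. The DIFF percentiles were again higher within each genotype, though the fold enrichments of PRO and DIFF overlapped in both. The change was 0.30 ± 0.16 in WT (adjusted p = 0.233) and 0.13 ± 0.20 in p27KO (adjusted p = 0.739).

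Cdk4, a partner of the D-type cyclins, had WT percentiles of 72.4, 77.4 and 75 in PRO and 81.4, 87.1 and 78.2 in DIFF, and p27KO percentiles of 72.6 and 78.6 in PRO and 78.3 and 88.7 in DIFF. The p27KO groups overlapped. In WT the fold enrichments overlapped, at 9.32, 10.3 and 9.03 in PRO and 8.63, 9.63 and 10.3 in DIFF. The change was 0.26 ± 0.19 in WT (adjusted p = 0.373) and 0.30 ± 0.23 in p27KO (adjusted p = 0.463). For Cdk6, the other kinase of the D-type cyclins, the values were 53.2, 47 and 43.6 in WT PRO, 57.6, 71.4 and 46.7 in WT DIFF, 56.5 and 56.6 in p27KO PRO, and 61.3 and 67 in p27KO DIFF. The WT groups overlapped, and the change was 0.28 ± 0.20 in WT (adjusted p = 0.37) and 0.20 ± 0.24 in p27KO (adjusted p = 0.665).

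The D-type cyclin promoters also gave no call. The Ccnd1 promoter, at 144939593 to 144940472 on chromosome 7, had percentiles of 28.6, 33.1 and 33.5 in WT PRO, 30.5, 48.1 and 25.7 in WT DIFF, 28.6 and 32.9 in p27KO PRO, and 26.4 and 26.4 in p27KO DIFF. The WT groups overlapped, and it was the only promoter whose p27KO change was negative, at -0.13 ± 0.23 (adjusted p = 0.791), beside 0.07 ± 0.19 in WT (adjusted p = 0.834). Ccnd2 had percentiles of 32.5, 32.9 and 23 in WT PRO, 55.2, 44.6 and 28.6 in WT DIFF, 22.4 and 30.2 in p27KO PRO, and 56.8 and 33.7 in p27KO DIFF. Its DIFF libraries were spread widely, and the change was 0.36 ± 0.23 in WT (adjusted p = 0.326) and 0.51 ± 0.28 in p27KO (adjusted p = 0.295).

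Ccnd3 has several annotated starts, and its promoter was taken as the region found in most libraries and, among those, nearest to a start, with its summit 11 bp from a start that lies 88.4 kb downstream of the first. Its percentiles were 75.1, 78.3 and 83.8 in WT PRO, 82.2, 84.5 and 82.5 in WT DIFF, 80.7 and 72.7 in p27KO PRO, and 84.8 and 82.3 in p27KO DIFF. The WT groups overlapped, with a change of 0.14 ± 0.17 (adjusted p = 0.617), and the p27KO change was 0.24 ± 0.21 (adjusted p = 0.519). The region at the first start, with its summit 9 bp away, was far weaker. It had percentiles of 17.8, 13.2 and 16.1 in WT PRO and 7.57 and 9.98 in p27KO PRO, and in DIFF it had a peak only in WT DIFF 2, at 31.1. Its change was -0.12 ± 0.27 in WT (adjusted p = 0.801) and 0.01 ± 0.33 in p27KO (adjusted p = 0.992). Absent peaks were tied at percentiles of 10.5 in p27KO DIFF 1 and 7.41 in p27KO DIFF 2, near its p27KO PRO values. The p27KO change therefore does not register the loss of the peak. The most enriched tested region around Ccnd3 differed between the conditions. In all 5 PRO libraries it was an intronic region 41.0 kb downstream of the first start, with fold enrichments of 12.5 to 16.3, and in the 5 DIFF libraries it was a region 2.8 kb upstream, 7 bp from the start of Taf8. Neither region passed the test, with adjusted p-values of 0.243 and 0.11 in WT and 0.494 and 0.285 in p27KO.

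Counted together, 8 of the 8 promoters had a positive change in WT, with a median of 0.27, though Ccnd1 turned to -0.15 and Ccne2 to -0.01 when peaks were ranked by p-value. Under that ranking the WT changes of Cdk4, Ccnd3 and Cdk2 kept their sign but shrank to 0.02, 0.05 and 0.11. In p27KO 7 of 8 were positive, also with a median of 0.27, and Cdk2 turned to -0.04 under that ranking. Over 13838 gene promoters the median change was 0.12 in WT and 0.13 in p27KO, and 66% and 67.8% were positive. Ccne1 in WT was the only one of the 8 called. The share called over all gene promoters was 4.91% in WT and 2.29% in p27KO. Across the 10 libraries the normal scores of the promoters were correlated pair by pair, over 28 pairs sharing the same libraries, from r = 0.84 for Ccne1 and Cdk4 to r = -0.23 for Ccnd1 and Ccne2.

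All promoter regions in the windows, including those of neighbours, gave a similar picture. Of 37 tested, 1 was called higher and 0 lower in WT, against 4.63% higher and 4.04% lower over all promoter regions. In p27KO 1 was higher and 0 lower, against 2.54% and 2.35%. The p27KO call was a region inside Ccnd1, 4.2 kb downstream of the gene start and 2.4 kb from the start of another Ccnd1 transcript, with percentiles of 7.34 and 9.21 in PRO and 30.6 and 30.7 in DIFF. Its change was 0.88 ± 0.24 in p27KO (adjusted p = 0.0377) and 0.31 ± 0.20 in WT (adjusted p = 0.31), where the libraries were at 14.1, 9.38 and 12.3 in PRO and had no peak, 31.2 and 16.6 in DIFF. The call was lost without any single PRO or p27KO DIFF library of the 10, with adjusted p-values from 0.0976 to 0.224. With lists of equal length it was found in too few libraries to be tested.

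A property of the scale bears on such weak peaks. Regions without a peak were tied at the bottom of their library, at percentiles from 2.82 to 14.3, and the weakest listed peak stood between 5.64 and 28.6, highest in the short lists of WT DIFF 1, WT DIFF 2 and p27KO DIFF 1. A weak peak in a short list therefore has a higher percentile than one of the same strength in a long list. For this reason the lists were also cut to the length of the shortest one, 57534 peaks, and values from these lists are given beside the weak regions that were called. The cut drops the weakest peaks of the longer lists, so a region weak in 1 condition may lose its peaks there.

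Outside promoters, 42 distal regions were tested. In WT 2 were called higher and 2 lower, against 11.0% and 12.5% of all distal regions, and in p27KO 2 were higher and 0 lower, against 7.16% and 8.16%. The absence of falls in p27KO depended on the setting, since 1 of all regions around the 8 genes was called lower under 8 of 10 other settings, and in the fit to only the groups compared that fall was the single call. The medians of the change were -0.02 in WT and 0.08 in p27KO, beside -0.02 and -0.01 for all distal regions. The difference of these counts from the background was not tested.

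The distal region with the smallest adjusted p lay 34.1 kb upstream of Ccnd3, at 47470695 to 47470986 on chromosome 17, and rose in both genotypes. Its percentiles were 12, 16.9 and 16.4 in WT PRO and 43.4, 40.5 and 45.2 in WT DIFF, and 11 and 16.4 in p27KO PRO and 40 and 50.9 in p27KO DIFF. Each DIFF library lay above each PRO library. The change was 0.86 ± 0.17 in WT (adjusted p = 0.0054) and 0.99 ± 0.21 in p27KO (adjusted p = 0.0118), and with lists of equal length it was 1.08 and 1.13. Its weak PRO peaks lie in the part of each PRO list that the cut removes, which leaves only DIFF libraries to test it. The values from lists of equal length are therefore not a separate test of the rise. The WT call was kept without each library in turn. The p27KO call was lost without p27KO PRO 1 (adjusted p = 0.109), p27KO PRO 2 (0.0533) or p27KO DIFF 2 (0.0778). Since the nearest protein-coding start, 31371 bp away, is that of Taf8, the data do not tie this region to Ccnd3.

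A CpG-rich region 3.6 kb upstream of Ccnd1, at 144943238 to 144943609 on chromosome 7, also rose in both genotypes. The percentiles were 21.7, 13.1 and 19.4 in WT PRO, 41.3, 41 and 37.6 in WT DIFF, 22.1 and 11.3 in p27KO PRO, and 48.7 and 37.5 in p27KO DIFF. No PRO library reached a DIFF library in percentile. Fold enrichments overlapped in WT, at 4.1, 3.25 and 3.53 in PRO and 4.11, 3.88 and 5.08 in DIFF. In p27KO they were 4.23 and 3.08 in PRO and 5 and 5 in DIFF. The change was 0.67 ± 0.19 in WT (adjusted p = 0.0304) and 0.81 ± 0.23 in p27KO (adjusted p = 0.0432), and 0.98 and 1.05 with lists of equal length. Here too the cut removes weak PRO peaks, so the larger values are not a separate test of the rise. Both calls were fragile. Leaving out any of WT PRO 1, 2 and 3 or WT DIFF 1 and 2 raised the adjusted p in WT to between 0.0675 and 0.153, and in p27KO only the omission of WT DIFF 3 kept the call, with adjusted p-values up to 0.338 for the other libraries. When peaks were ranked by p-value the changes were 0.34 (adjusted p = 0.212) and 0.52 (0.146), and neither passed.

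On the other side of Ccnd1, a region over the 3′ end of the gene, 10.2 kb from its start, fell in WT. It spans 144928519 to 144930473 on chromosome 7 and reaches into an untranslated exon of LTO1. The percentiles were 35.6, 38.6 and 33.2 in WT PRO, while in WT DIFF no peak was called in 2 libraries and the other was at 11.3. In p27KO they were 25.1 and 36.3 in PRO, with no peak in 1 DIFF library and 30.7 in the other, so the p27KO groups overlapped. The change was -0.78 ± 0.21 in WT (adjusted p = 0.0251) and -0.37 ± 0.26 in p27KO (adjusted p = 0.418), and the difference between genotypes, 0.41 with a 95% interval from -0.33 to 1.14, did not pass. The WT call was lost without any of WT PRO 1 and 2 and WT DIFF 1, 2 and 3, with adjusted p-values from 0.0512 to 0.088, and when only peaks with a -log10 q-value of at least 5 were kept (-0.50, adjusted p = 0.145). With lists of equal length the WT change was -0.67 (adjusted p = 0.0331).

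The larger of the 2 called falls was at the 3′ end of Cdk6, 179.6 kb downstream of its start, in an untranslated exon at 3520774 to 3521439 on chromosome 5. The percentiles fell from 54.1, 72.1 and 64.4 in WT PRO to 28, 28.9 and 9.98 in WT DIFF. In p27KO they were 52 and 68.6 in PRO, and in DIFF 1 library had no peak and the other was at 33.7. All 5 PRO libraries lay above all 5 DIFF libraries. The change was -1.16 ± 0.28 in WT (adjusted p = 0.0137) and -1.11 ± 0.34 in p27KO (adjusted p = 0.058), which passed with lists of equal length (adjusted p = 0.0319). The WT call was lost without WT PRO 2 (adjusted p = 0.0502) or WT DIFF 3 (0.052).

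**Figure D3:**
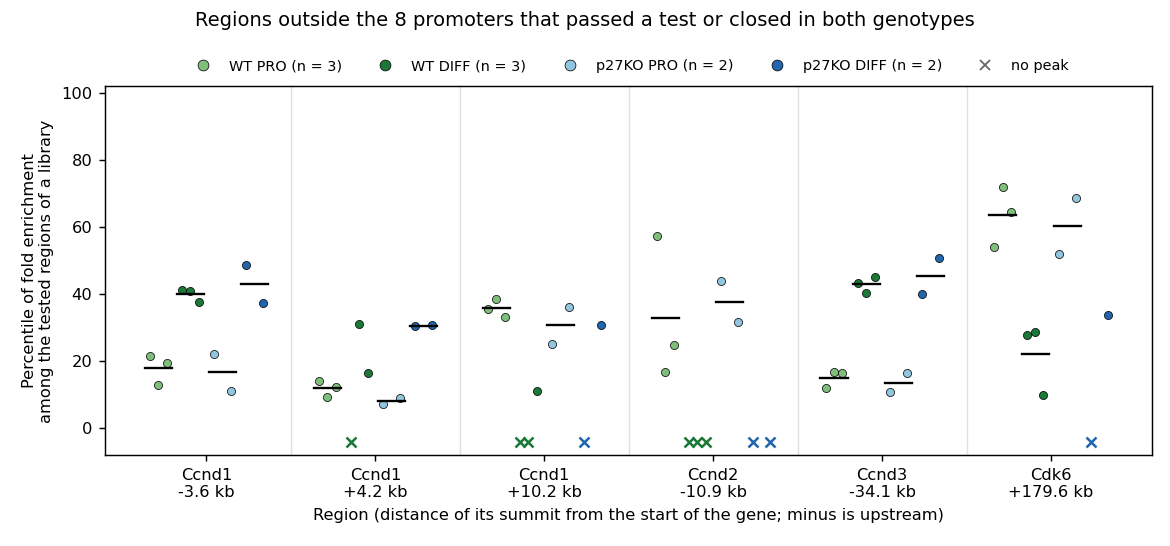
Each point is a library, a cross is a library with no peak, and a black line is the mean of a group with a peak in all its libraries. The y axis is the percentile of fold enrichment among the tested regions, and the x axis gives the gene and the distance of the region from its start; the regions 34.1 kb upstream of Ccnd3 and 3.6 kb upstream of Ccnd1 are higher in DIFF, and that 179.6 kb downstream of the Cdk6 start is lower.

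Presence of a peak was counted as well. A region was termed closed in a genotype if it had a peak in each PRO library and in no DIFF library, and opened if the reverse held. Among the 104 regions found in 2 or more libraries, 1 was closed and 0 opened in WT, against 4.32% and 1.86% of all 99231 such regions. In p27KO 10 were closed and 0 opened, against 10.9% and 3.32%. These counts moved with list length and single libraries: with lists of equal length 2 were closed and 3 opened in p27KO and 4 opened in WT, and with a library left out the number closed in p27KO ranged from 10 to 20 and that in WT from 1 to 7. The counts for p27KO rest on 2 libraries a condition and those for WT on 3, and fewer libraries make such a pattern easier to meet, so the counts of the 2 genotypes are not compared.

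Of the 104 regions 1 was closed in both genotypes, against 2.61% of all 99231 regions. It lay 10.9 kb upstream of Ccnd2, at 127162851 to 127163275 on chromosome 6. Its percentiles were 57.4, 16.9 and 24.8 in WT PRO and 44.1 and 31.6 in p27KO PRO, and no DIFF library had a peak. The rank change was -0.84 ± 0.30 in WT (adjusted p = 0.0715) and -1.04 ± 0.36 in p27KO (adjusted p = 0.0919), so it did not pass. It did when regions found in 2 or more libraries were tested, with adjusted p-values of 0.0278 and 0.0492. The region was picked because no DIFF library had a peak, and it entered the tests through PRO libraries only. None of these p-values is therefore a separate test of that loss. The 9 others closed in p27KO were spread over Ccnd3, Ccnd2, Ccne1 and Ccnd1, among them the weak region at the first start of Ccnd3.

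The number of peaks around the 8 genes was lower in most DIFF libraries. There were 90, 93 and 96 in WT PRO, 77, 73 and 96 in WT DIFF, 100 and 103 in p27KO PRO, and 77 and 82 in p27KO DIFF. The p27KO groups did not overlap, and WT DIFF 3, with the longest list of its group at 88738 peaks, equalled the highest WT PRO library. Within genotype, the difference between DIFF and PRO was -16.5 peaks (exact permutation p = 0.0667, adjusted over 4 tests 0.267, smallest possible p 0.0167). Per 10000 peaks of the list the counts were between 10.8 and 12.7 in all libraries, and the difference of -0.102 was within the spread (exact permutation p = 0.85). Its sign depended on the threshold, with 1.02 when only peaks with a -log10 q-value of at least 5 were kept (exact permutation p = 0.0667) and 0.623 with lists of equal length (exact permutation p = 0.15). Between genotypes the differences were 3 peaks (exact permutation p = 0.63) and -0.504 per 10000 (exact permutation p = 0.35).

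**Figure D4:**
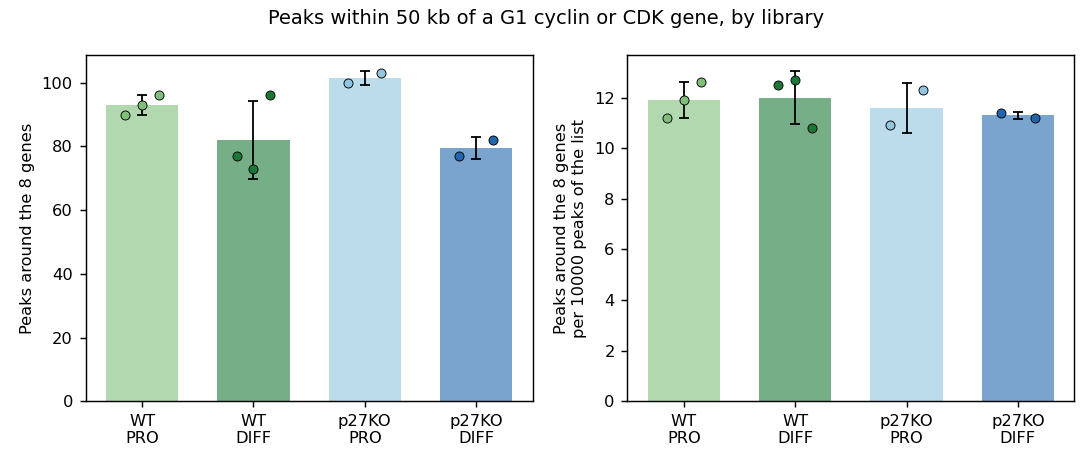
The left panel gives the number of peaks with a summit in or within 50 kb of the 8 genes, and the right panel that number per 10000 peaks of the list, for each library (points) with the group mean (bar) and SD (error bar). The p27KO DIFF libraries have 77 and 82 peaks against 100 and 103 in p27KO PRO, and the shares lie between 10.8 and 12.7 in all libraries.

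The second question was whether the loss of p27 altered these changes. No region around the 8 genes passed the test of the difference between genotypes: 0 of 79 at an adjusted p under 0.05, and 1 of 79 at an unadjusted p under 0.05, beside 0% and 2760 of 70627 over the genome. That 1 region lay 32.8 kb downstream of the Ccne1 start, with a difference of -1.01 (unadjusted p = 0.0328). The direct comparisons of genotypes also gave 0 of 79 calls, in PRO against 0.0340% of all regions and in DIFF against 0.0156%. At an unadjusted p under 0.05 there were 0 of 79 in either, against 5.53% of all regions in PRO and 4.91% in DIFF. At the 8 promoters the 95% intervals of the genotype difference in change were wide, from -0.73 to 0.39 for Cdk2 and from -0.65 to 0.97 for Ccnd2, so differences of that size were not detectable with these libraries.

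Set side by side, the changes in WT and p27KO, which come from separate libraries, had the same sign in 59 of 79 regions, or 74.7%, against 76% of all tested regions. Their correlation across the 79 regions was 0.59, and 0.80 across all regions; regions are not independent replicates.

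**Figure D5:**
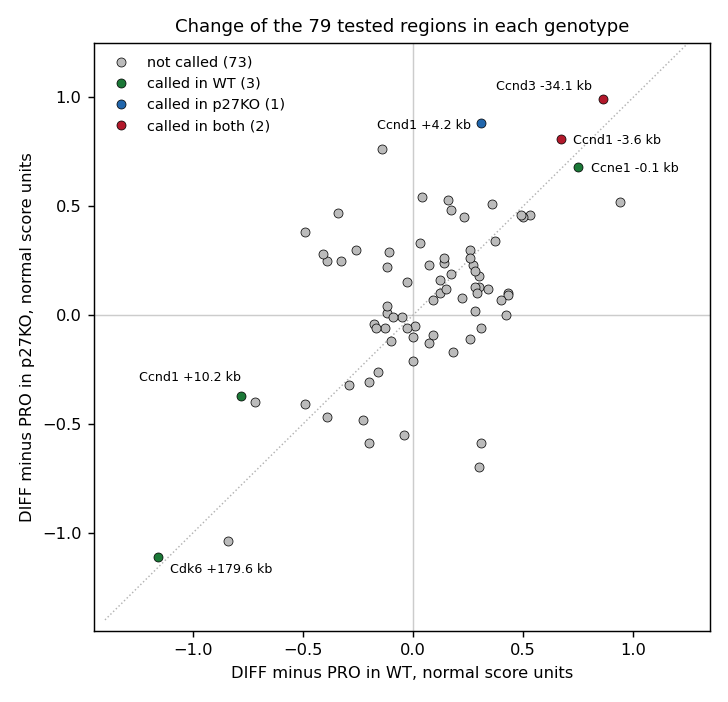
Each point is 1 of the 79 tested regions, with the change from PRO to DIFF in WT on the x axis and in p27KO on the y axis, both in normal score units, and the dotted line marks equal change. The 2 regions called in both genotypes, 34.1 kb upstream of Ccnd3 and 3.6 kb upstream of Ccnd1, lie at the upper right, and the Cdk6 region at -1.16 and -1.11 lies at the lower left.

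The wider G1 and S pathway gave as few calls. Of 40 further genes (CDK inhibitors, RB and E2F families, kinases, ubiquitin ligase subunits and Myc genes), 39 had a tested promoter. In WT, 33 of the 39 had a positive change, with a median of 0.14, against 66% positive over all gene promoters, and 1 was called, against 4.91%. It was E2f1, which encodes an activator of S phase genes, at 0.57 ± 0.18 (adjusted p = 0.0447). In p27KO 29 were positive, with a median of 0.15, against 67.8%, and 1 was called, against 2.29%. It was Cdkn1a, the gene of the CDK inhibitor p21, at 0.77 ± 0.22 (adjusted p = 0.0456). The 29 positive promoters include Cdkn1b, at 0.45 ± 0.20, which had no peak in any p27KO library. That value reflects only the tied rank of absent peaks, which is higher in the shorter DIFF lists. E2f1 was at 0.10 ± 0.22 in p27KO and Cdkn1a at 0.30 ± 0.18 in WT, and neither gene's difference between genotypes passed (adjusted p = 1 for both). Between genotypes only the mutated gene itself was called, with Cdkn1b lower in p27KO by -2.75 ± 0.19 in PRO (adjusted p = 0.000198) and by -2.38 ± 0.19 in DIFF (adjusted p = 0.00088), against 0.0289% of gene promoters called in each condition.

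Ccne1 had the largest promoter change of the 8 genes. The genes whose promoter scores followed it most closely over the 10 libraries, among 15253 compared, were Snhg11 with r = 0.987, Cops5 with r = 0.982 and Dnajb5 with r = 0.977. These values describe likeness over libraries that share conditions and list lengths.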

How the data were processed

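The data were ATAC-seq peak lists of 10 libraries, 1 list for each, so no replicates were pooled. The authors trimmed reads with Cutadapt and Trimmomatic, aligned them to GRCm38/mm10 with Bowtie2, flagged PCR copies by Picard MarkDuplicates and ran MACS2 in narrow mode, with model building off and an FDR limit of 0.05. Tool versions, read shift and extension are not given in the sources used here. The deposited lists give, for each peak, the fold enrichment over local background at the summit, its p-value and its q-value, both as -log10, made by the authors with MACS2. They hold no counts, so read depth is unknown, the read-based test of the study was not run, and no counting interval can be given. Because the fold is divided by local background, it is not a read density, and lists of different length reach down to different peak strengths.

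Peaks overlapping by at least 1 bp were merged into regions, annotated with GENCODE M21 (the authors used another release). A region was a promoter within 3 kb of a protein-coding start and distal otherwise. Regions found in 5 or more libraries were ranked by fold enrichment within each library, with absent peaks tied lowest, and turned into normal scores, which limma 3.58.1 (R 4.3.3) fitted with 1 mean per group over all 10 libraries. P-values were adjusted by Benjamini-Hochberg over 70627 regions with a threshold of 0.05. Peak numbers were compared by two-sided exact permutation tests within genotype or condition. Fits were tested on simulated data. Python 3.11.15, numpy 2.4.6, pandas 2.3.3, scipy 1.17.1 and matplotlib 3.10.9 were used.

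The 8 genes were named with the promoter region found in most libraries, then nearest to a start. Distal regions were named if past the threshold, up to 3 falls and 3 rises per contrast, or closed or opened in both genotypes. Regions leading a locus, the Ccnd1 regions at -1.7 and +4.2 kb and the E2f1 and Cdkn1a promoters were named after their values were seen. The members and lists were chosen with earlier results of these data known. Groups came from sample titles and genotypes. The labels do not say whether replicates came from separate cultures, so p-values measure the spread between these libraries. Same-numbered WT libraries had correlated deviations of only 0.0328 to 0.0647, so the numbers were not treated as pairs. Alternatives were ranking by p-value, the presence filter, a q-value minimum, equal list lengths, merging of summits, a 10 kb window, fits to only the groups compared, a replicate block and the omission of each library.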

Additional observations from a re-analysis of the deposited data

How the results depend on the processing

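Peak lists without read counts limit all of these values, and weak peaks near the end of a list depend most on its length. Over 42 results, 286 of 333 values under other settings and 349 of 410 with a library left out kept direction, call and size, and the cause was not tested for the rest. The WT count of 5 called regions became 3 when only regions in all 10 libraries were tested and ranged from 2 to 6 with a library left out (2 without WT PRO 1, WT PRO 2 or WT DIFF 2). The p27KO count of 3, all higher, became 1, lower, in a fit to only the groups compared and ranged from 0 to 4 (0 without p27KO PRO 1, p27KO PRO 2 or p27KO DIFF 2, and 1 without WT PRO 1, WT PRO 2, WT PRO 3 or p27KO DIFF 1). In these fits a lone sample is assumed to vary like the other groups. With the replicate block the counts were 7 in WT and 3 in p27KO, where the Ccnd1 region at +4.2 kb was lost (adjusted p = 0.0605) and the Cdk6 region at +179.6 kb gained (0.0351). With the p27KO numbers crossed, chosen after seeing a correlation of -0.141 between same-numbered libraries, the p27KO count was 1. Genotype counts stayed 0 in every setting and with each library left out. By presence, the regions closed in WT were 4 with a -log10 q-value of at least 5 and 0 with a 10 kb window, and 1 to 7 with a library left out. Those opened in WT were 4 with lists of equal length, and 0 to 1. Those closed in p27KO were 2 with the q-value minimum, 2 with equal lengths and 4 with the 10 kb window, and 10 to 20. Those opened in p27KO were 1, 3 with equal lengths and 2 with summits merged within 250 bp, and 0 to 5. Peaks per 10000, DIFF minus PRO, turned from -0.102 to 1.02 with the q-value minimum (exact permutation p = 0.0667), 0.623 with equal lengths and 0.0384 with the 10 kb window, and ranged from -0.45 to 0.245 with a library left out. Ranking by p-value turned Cdk2 in p27KO to -0.04 and, in WT, Ccne2 to -0.01 and Ccnd1 to -0.15. The Ccnd1 promoter also turned to -0.18 in WT with regions in all 10 libraries and to 0.11 in p27KO with the q-value minimum, and ranged from -0.07 to 0.25 in WT with a library left out. The Ccnd1 region at +10.2 kb ranged from -0.69 to 0.05 in p27KO.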
